A study of Rattus norvegicus with 18 samples.

Results

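Cultured rat hippocampal neurons carrying a ligand-switched form of the transcription factor MEF2 were set against neurons carrying the same protein without its DNA-binding domain, both after 2.5 h of 4-hydroxytamoxifen (4OHT). The comparison used 6 of the 18 arrays of the study: all 3 arrays whose titles name MEF2-VP16-ER and 2.5 h, and all 3 whose titles name Control and 2.5 h. Arrays were paired by replicate number, and no value from 0 h was subtracted. Both groups received lentivirus on day in vitro 3 and 4OHT on day in vitro 10. MEF2-VP16-ER joins MEF2 to the VP16 activation domain and to estrogen receptor (ER) sequence that responds to 4OHT. Control neurons expressed MEF2deltaDBD-VP16-ER and therefore carried the activation domain, the ER sequence and the ligand as well. The other 12 arrays covered both constructs at 0 h and at 1 h of 4OHT. Each group held 3 biological replicates by its labels, which do not say whether these were separate cultures or animals. Rat strain and age, the MEF2 family member used and the promoter driving the constructs are not given in the sources used here.

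MEF2 proteins bind a short AT-rich DNA element and recruit either activators or class IIa histone deacetylases. In neurons their activity is set by calcium signals after synaptic activity, and they are known for regulating genes that act on synapse number and on neuronal survival. Fusion to VP16 makes a MEF2 protein a strong activator at sites it binds. ER sequence holds such a fusion inactive until its ligand enters the cell.

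Values are deposited array intensities on a linear scale, and differences are MEF2-VP16-ER minus control on log2(intensity + 16). That scale understates the difference for dim probe sets. Median intensity of the 6 arrays lay between 190.4 and 196.3, and the lowest upper quartile, 639.4, belonged to control replicate 2. Intensities of same-numbered arrays were correlated across probe sets at 0.9939 to 0.9954, and those of arrays within a group at 0.9891 to 0.9953. The median SE of a difference at 2.5 h was 0.07 log2 units. Array number limited this precision. Genes are called higher or lower here when limma gave them a Benjamini-Hochberg adjusted p below 0.05, with all 31042 probe sets in the adjustment.

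At 2.5 h, 1083 of 31042 probe sets differed between the constructs (3.49%). Of these, 764 were higher with MEF2-VP16-ER (2.46%) and 319 were lower (1.03%). They carried the names of 462 higher and 224 lower genes, and 293 called probe sets had no single gene symbol. Most differences were modest: the median called difference was 0.45 log2 units for higher and -0.39 for lower probe sets. At least 2-fold differences were found for 45 genes on the higher side and for 5 on the lower side. All 3 pairs went the same way in 1081 of the 1083. Arrays of the 2 constructs did not overlap for 897 of the called probe sets, against 3890 of all probe sets (12.5%).

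These counts depended on the pairing and, for the split by direction, on the scaling. Leaving out the replicate block gave 295 higher and 102 lower, and all 397 were among the 1083. After quantile normalization 657 were higher and 522 lower, so the higher share was 55.7% in place of 70.5%. Leaving out control replicate 2 at 2.5 h gave 472 higher, and leaving out MEF2-VP16-ER replicate 3 at 2.5 h gave 186 lower. Without all arrays of replicate 2, 455 probe sets were called, and without those of replicate 3, 453. Without replicate 1 the lower count was 151.

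Hs3st1, which encodes an enzyme that adds a sulfate to heparan sulfate chains, led the higher genes, each taken by its most significant probe set. Its intensity was 323, 281 and 223 in control replicates 1, 2 and 3 and 1576, 1449 and 1642 in the MEF2-VP16-ER replicates. No MEF2-VP16-ER array came near a control array. The difference was 2.44 ± 0.10 log2 units (SE), a 5.44-fold higher level on this scale (adjusted p = 1.21e-09). Control neurons averaged 488.1 ± 21.9 at 0 h (SD), so their level at 2.5 h, 275.6 ± 50.2, lay below that at the start.

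Pwwp3b stood at 105, 97.3 and 96.2 in control arrays and at 761, 538 and 523 with MEF2-VP16-ER (2.41 ± 0.11, adjusted p = 7.06e-09). Col10a1, a collagen gene of cartilage, stood at 64.4, 68.4 and 58.2 in control arrays. With MEF2-VP16-ER it reached 539, 264 and 473 (2.41 ± 0.16, adjusted p = 3.54e-07). In both genes the control arrays were dim and close together and every MEF2-VP16-ER array was well above them, with replicate 2 the lowest for Col10a1.

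Rgs2 encodes a protein that shortens signalling by G-protein-coupled receptors. One of its probe sets read 593, 544 and 581 in control arrays and 2504, 2393 and 3386 with MEF2-VP16-ER (2.22 ± 0.17, adjusted p = 9.36e-07). Its other probe set differed by 2.19 ± 0.17. Fgl2, a fibrinogen-related gene, read 177, 117 and 92.2 against 868, 573 and 447 (2.15 ± 0.12) on its most significant probe set. All 4 of its probe sets were called, but at differences from 0.419 to 2.86, the largest above that of Hs3st1. For Fgl2 replicate 1 was highest and replicate 3 lowest in both constructs, and the pairs differed by a similar 2.2, 2.15 and 2.1 log2 units.

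Bdnf encodes brain-derived neurotrophic factor, a secreted protein that acts on synapses. Control arrays held 509, 417 and 270, and MEF2-VP16-ER arrays 1844, 1636 and 1297 (1.99 ± 0.12, 3.96-fold, adjusted p = 9.19e-08). Replicate 3 was lowest in both constructs, and the groups did not overlap. The gene's other probe set differed by only 0.37 ± 0.07 (adjusted p = 0.00784), so the size of the Bdnf difference depended on the probe set.

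Synpo2l, related to the actin-associated protein synaptopodin, was the least even of the leading genes. Control arrays read 95.5, 96.9 and 94.6, and MEF2-VP16-ER arrays 163, 337 and 1306. The pairs thus differed by 0.68, 1.64 and 3.58 log2 units around a mean of 1.97 ± 0.40 (adjusted p = 0.0101). Its difference moved to 1.16 without replicate 3 and to 1.26 without MEF2-VP16-ER replicate 3 at 2.5 h. It lost its call without replicate 2 (adjusted p = 0.175) or control replicate 3 at 2.5 h (adjusted p = 0.065).

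The remaining leading genes included the opsin gene Opn3 (1.95 ± 0.17), the tyrosine phosphatase gene Ptpn21 (1.92 ± 0.17) and Cited2, a transcriptional co-regulator (1.89 ± 0.10). Hspb1, which encodes a small heat shock protein, was higher by 1.79 ± 0.14. Its control arrays spread from 135 to 327 and its MEF2-VP16-ER arrays from 571 to 1118. Kcna4, the gene of a fast-inactivating potassium channel, went from 299 to 396 in control arrays to 1094 to 1306 (1.73 ± 0.09). Klf5, a Krüppel-like transcription factor, was higher by 1.68 ± 0.13, and 3 of its 4 probe sets were called. Adamts1, a secreted metalloproteinase gene, was higher by 1.54 ± 0.23, with replicate 3 at 117 against 371 and 437 in the other MEF2-VP16-ER arrays. It lost its call without replicate 2 (adjusted p = 0.0709).

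**Figure D1:**
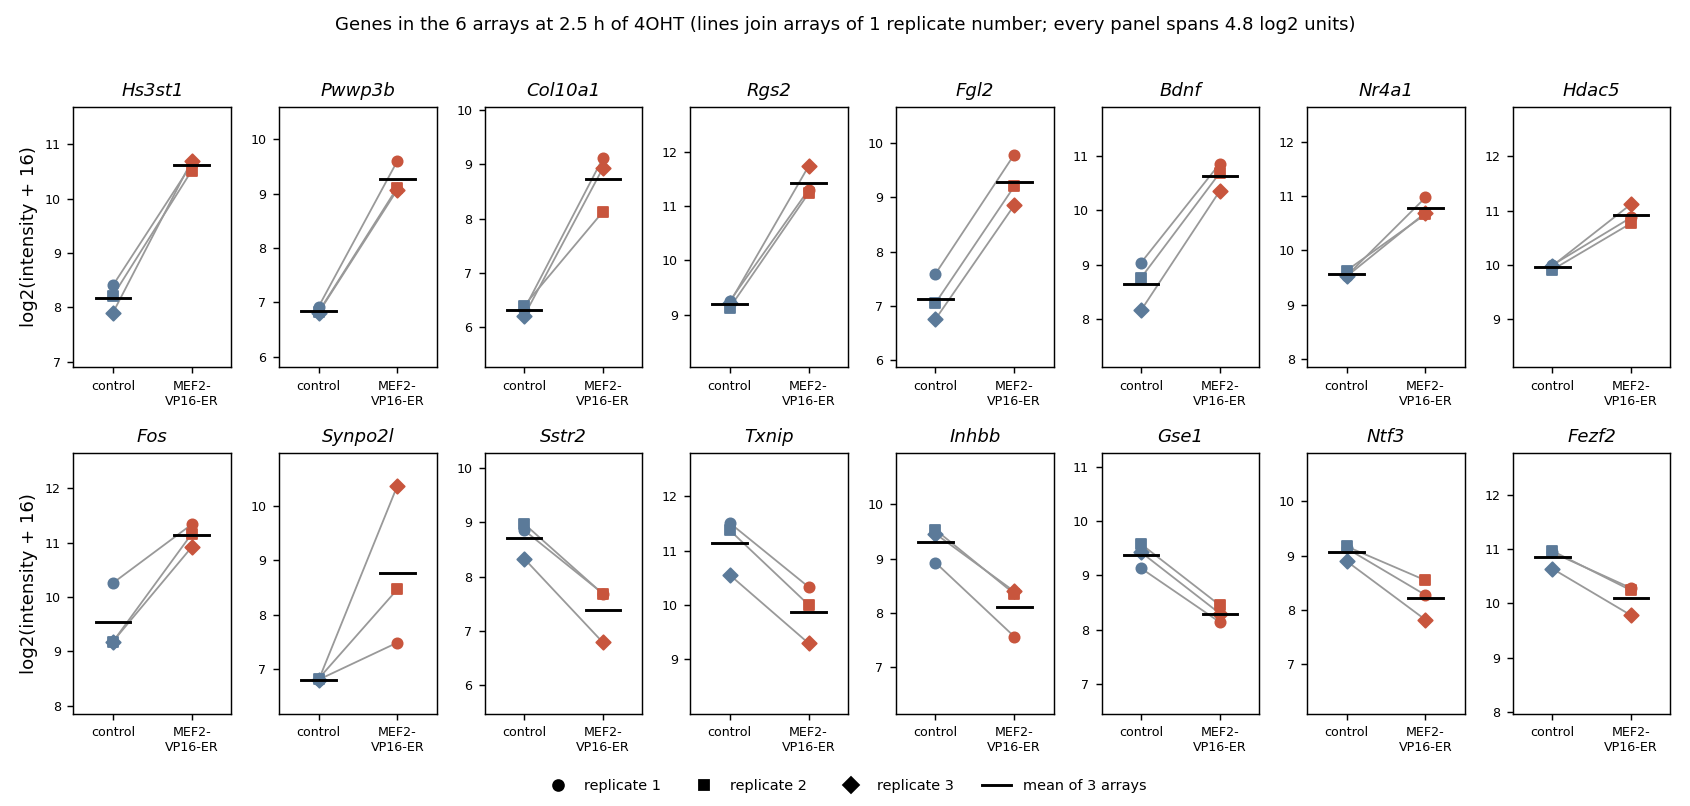
Intensity on the log2(intensity + 16) scale of 16 genes in the 6 arrays at 2.5 h of 4OHT, with lines joining the 2 arrays of each replicate number, marker shape giving the replicate and a bar for the mean of 3 arrays. Every line rises for the first 10 genes and falls for the last 6, and Synpo2l shows the widest spread, from 0.68 to 3.58 log2 units.

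Fewer genes were lower by a large margin. Sstr2, a receptor for the inhibitory peptide somatostatin, read 446, 486 and 306 in control arrays and 190, 189 and 94.4 with MEF2-VP16-ER. Its difference was -1.33 ± 0.10 (2.52-fold lower, adjusted p = 9.67e-07), and the groups did not overlap. Its other probe set was called at a much smaller difference, -0.335 ± 0.06. Replicate 3 was the lowest array in each construct.

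Txnip, whose product binds thioredoxin and restrains glucose uptake, read 2895, 2639 and 1485 against 1272, 1009 and 612 (-1.27 ± 0.16, adjusted p = 0.000133). Its relative Arrdc4 was lower too, by -0.86 ± 0.12. Replicate 3 was again lowest in both constructs, and control replicate 3 stood only a little above the brightest MEF2-VP16-ER array. Inhbb, an activin and inhibin subunit gene, read 472, 726 and 689 against 174, 312 and 322 (-1.20 ± 0.09). Gse1 read 545, 748 and 672 against 266, 334 and 299 (-1.08 ± 0.07), and 2 of its 3 probe sets were called. For Inhbb and Gse1 replicate 1 was the lowest array in both constructs.

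The neurotrophin gene Ntf3 was lower by -0.85 ± 0.09, the opposite direction to Bdnf. Other lower genes were Runx1t1, a transcriptional corepressor with all 4 probe sets called (-0.86 ± 0.07), Nin, a centrosomal protein gene (-0.855 ± 0.07), and Irf2bpl (-0.85 ± 0.05). Only 1 of 3 Irf2bpl probe sets was called. Ddit4, an inhibitor of mTOR signalling, was lower by -0.81 ± 0.14. Bhlhe41, a repressor tied to the circadian clock, was lower by -0.78 ± 0.10, Fam43b by -0.75 ± 0.08 and Fezf2 by -0.75 ± 0.06. Sh3bp4 (-0.79 ± 0.17, adjusted p = 0.012) passed with all arrays but not without replicate 1 (adjusted p = 0.132) or replicate 3 (adjusted p = 0.0883). It also lost its call without control replicate 3 at 2.5 h (adjusted p = 0.0584) or MEF2-VP16-ER replicate 3 at 2.5 h (adjusted p = 0.0861).

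Of these 32 genes, 7 lost their call when the pairing was left out. Without the replicate block the adjusted p was 0.0751 for Synpo2l, 0.166 for Hspb1, 0.405 for Fos, 0.0977 for Adamts1, 0.107 for Txnip, 0.17 for Ddit4 and 0.64 for Sh3bp4. The other 25 kept it in that fit, which still took the spread from all 18 arrays. With only the 6 arrays at 2.5 h and no block, further leading genes lost their call. Among them were Sstr2 (adjusted p = 0.22), Inhbb (0.244), Arrdc4 (0.42), Ntf3 (0.24) and Fgl2 (0.0543), while Hs3st1, Bdnf and Gse1 were among those that kept it.

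The MEF2 genes themselves and the deacetylases that bind MEF2 were examined next. Mef2a was higher in all 4 of its probe sets, by 0.54 to 0.68 log2 units. Its most significant probe set read 1878, 1388 and 1450 in control arrays and 2613, 2229 and 2358 with MEF2-VP16-ER (0.62 ± 0.07, adjusted p = 6.78e-05), without overlap. Mef2c (0.15 ± 0.12, adjusted p = 0.643) and Mef2d (0.19 ± 0.08, adjusted p = 0.262) were not called on either of their probe sets. At 0 h the Mef2a probe sets differed by 0.003 to 0.17. Whether any probe set detects the introduced MEF2 sequence, which both constructs carry at least in part, was not tested. Hdac5, which encodes a class IIa deacetylase, read 1006, 947 and 996 against 1860, 1728 and 2210 (0.96 ± 0.10, adjusted p = 3.92e-05). Its other probe set was not called (0.23 ± 0.07, adjusted p = 0.11). Hdac4 differed by 0.35 ± 0.10 (adjusted p = 0.0675) and Hdac7 by 0.11 ± 0.08 (adjusted p = 0.57). In the list of MEF2 genes and class IIa deacetylases 2 of 7 measured genes were thus higher and 0 lower, where 3 had an unadjusted p under 0.05. Over all 14217 genes, each read from its brightest probe set, 421 were higher (2.96%) and 206 lower (1.45%).

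Mef2a and Hdac5 were also 2 of the 5 genes called higher whose promoter sequence held the MEF2 element in its strict form. These 5 promoters are shown because MEF2 proteins bind that element. Whether the construct bound or acted through them was not tested. Promoters are RefSeq sequences of build GRCr8, 250 bases before to 50 after a gene's start, 5′ to 3′ along the gene, with the 10 bases of the MEF2 element in capitals. Mef2a lies at chr1:130392113-130392412, minus strand, Hdac5 at chr10:87688005-87688304, minus strand, Ankrd34a at chr2:186820241-186820540, plus strand, Hspb3 at chr2:47029116-47029415, minus strand, and Myl1 at chr9:75897750-75898049, minus strand.
Mef2a: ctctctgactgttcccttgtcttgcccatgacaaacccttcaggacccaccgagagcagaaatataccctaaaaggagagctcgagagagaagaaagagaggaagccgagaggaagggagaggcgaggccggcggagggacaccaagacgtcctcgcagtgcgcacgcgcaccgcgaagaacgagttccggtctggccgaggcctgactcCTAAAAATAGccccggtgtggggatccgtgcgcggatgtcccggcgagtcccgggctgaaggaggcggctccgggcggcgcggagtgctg
Hdac5: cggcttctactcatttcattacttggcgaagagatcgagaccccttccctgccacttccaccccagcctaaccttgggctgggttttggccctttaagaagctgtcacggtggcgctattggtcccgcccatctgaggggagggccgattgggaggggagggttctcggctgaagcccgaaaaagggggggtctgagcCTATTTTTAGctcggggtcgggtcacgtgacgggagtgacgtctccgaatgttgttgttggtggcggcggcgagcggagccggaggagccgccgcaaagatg
Ankrd34a: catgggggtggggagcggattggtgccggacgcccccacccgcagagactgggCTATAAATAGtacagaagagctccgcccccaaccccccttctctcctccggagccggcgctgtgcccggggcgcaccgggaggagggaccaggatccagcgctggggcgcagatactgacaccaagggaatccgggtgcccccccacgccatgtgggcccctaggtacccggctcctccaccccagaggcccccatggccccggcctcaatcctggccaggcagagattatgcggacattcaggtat
Hspb3: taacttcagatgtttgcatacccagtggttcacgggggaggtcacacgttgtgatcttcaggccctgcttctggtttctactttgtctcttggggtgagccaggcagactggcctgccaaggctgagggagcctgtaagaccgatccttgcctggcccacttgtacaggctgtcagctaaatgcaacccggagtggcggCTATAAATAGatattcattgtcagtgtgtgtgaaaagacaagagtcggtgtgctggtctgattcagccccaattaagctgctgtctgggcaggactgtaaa
Myl1: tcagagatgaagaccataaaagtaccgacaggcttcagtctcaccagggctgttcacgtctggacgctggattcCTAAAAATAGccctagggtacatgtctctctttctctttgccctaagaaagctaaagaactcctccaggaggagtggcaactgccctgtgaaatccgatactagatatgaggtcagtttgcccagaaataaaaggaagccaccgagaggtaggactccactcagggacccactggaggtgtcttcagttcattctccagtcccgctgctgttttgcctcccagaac

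The element began 40 bases before the start of Mef2a, 52 before that of Hdac5 and 51 before that of Hspb3, against 197 for Ankrd34a and 176 for Myl1. Ankrd34a was higher by 0.48 ± 0.07 (adjusted p = 0.0011). Hspb3, a small heat shock protein gene of muscle, was higher by 0.42 ± 0.09 (adjusted p = 0.0135). Myl1, a myosin light chain gene, went from 40.8, 40.5 and 41.1 in control arrays to 52.6, 69.1 and 57.3 (0.41 ± 0.06, adjusted p = 0.00117).

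Promoters were found by gene ID for 383 of the 462 higher genes and for 163 of the 224 lower genes. The strict element stood in 5 of 464 promoters of higher genes (1.08%), in 0 of 187 of lower genes, in 61 of 13192 of all measured genes (0.462%) and in 189 of all 33469 promoters (0.565%). A looser form, which contains the strict one, stood in 16 promoters of higher genes (3.45%), 3 of lower genes (1.6%), 241 of measured genes (1.83%) and 1100 of all promoters (3.29%). For genes at least 2-fold higher by their most significant probe set, 0 of 46 promoters held the strict form and 1 the looser (2.17%). Both forms read the same on the 2 strands as classes of sequence, so 1 search covered both. Of the leading genes with a promoter in the table, only Synpo2l held the looser form and none the strict one, which says only that these letters are absent from these windows. Sites elsewhere in the genome were not analysed here.

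Published neuronal MEF2 targets were higher or were not called. Of 13 measured genes in that list 9 were higher (69.2%, against 2.96% of all genes) and 0 lower. Their median difference was 0.84 log2 units, against 0.01 over all genes. Several of these genes entered the literature through experiments of this kind, so the list is not independent evidence. Besides Bdnf, Rgs2 and Kcna4, the genes called were Nr4a1, Klf6, Adcy8, Pcdh10, Pcdh17 and Lgi1. Nr4a1, an orphan nuclear receptor gene induced by activity, read 725, 777 and 720 against 1997, 1609 and 1641 (1.22 ± 0.11, 2.32-fold, adjusted p = 3.69e-06). Klf6 was higher by 1.04 ± 0.09 (adjusted p = 2.29e-06) and Adcy8, a calcium-stimulated adenylyl cyclase gene, by 1.36 ± 0.11. Lgi1, a secreted synaptic protein gene, was higher by 0.64 ± 0.09. Pcdh10, Pcdh17 and Lgi1 lost their call without the replicate block, which left 6 of the 13.

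The 4 genes of that list not called included Arc, whose product drives internalisation of AMPA receptors. Arc read 194, 217 and 188 in control arrays and 183, 157 and 170 with MEF2-VP16-ER. Every MEF2-VP16-ER array was below every control array, yet the difference did not pass (-0.22 ± 0.10, adjusted p = 0.312). Homer1, a postsynaptic scaffold gene, was called on 1 of its 5 probe sets (0.52 ± 0.13, adjusted p = 0.0428), where control arrays of 139 to 259 overlapped with 217 to 337. Without control replicate 2 at 2.5 h the difference was 0.295, and the call was also lost without the replicate block (adjusted p = 0.584). Ube3a (0.19 ± 0.07, adjusted p = 0.21) and Kcna1 (-0.03 ± 0.09, adjusted p = 0.909) were not called.

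Immediate early transcription factors are genes that respond within minutes to synaptic activity, and they were called in both directions. All 3 nuclear receptors of the Nr4a family were higher: besides Nr4a1, Nr4a2 differed by 1.15 ± 0.09 and Nr4a3 by 0.85 ± 0.05. Nr4a3 read 5119, 5176 and 4637 in control arrays and 9172, 8982 and 8724 with MEF2-VP16-ER, a narrow spread in both. Fos, an AP-1 subunit, read 1209, 563 and 565 against 2571, 2276 and 1920 (1.6 ± 0.34, adjusted p = 0.0133). Control replicate 1 stood above the other control arrays and below every MEF2-VP16-ER array. The Fos call was lost without control replicate 2 at 2.5 h (adjusted p = 0.0964), MEF2-VP16-ER replicate 3 at 2.5 h (adjusted p = 0.0936) or all arrays of replicate 2 (adjusted p = 0.27). Its other probe set was not called (-0.17 ± 0.09, adjusted p = 0.405). Atf3, a stress-responsive bZIP factor, was higher by 1.41 ± 0.26.

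Other early factors were lower. Egr1, a zinc finger factor, read 2603, 1605 and 921 against 1688, 1401 and 595 (-0.48 ± 0.12, adjusted p = 0.0417). Each pair fell while the groups overlapped, and without the replicate block the adjusted p was 0.915. Klf10 was lower by -0.61 ± 0.11 and Srf, the serum response factor gene, by -0.40 ± 0.06. In total 7 of 28 measured factors were higher (25%) and 3 lower (10.7%), against 2.96% and 1.45% of all genes. The median difference was 0.11. Only Klf6, Nr4a1 and Nr4a3 were called without the replicate block, 3 higher and 0 lower.

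Among activity-regulated effector genes 9 of 35 were higher (25.7%) and 2 lower (5.71%), against 2.96% and 1.45% of all genes. The secreted factors that were higher were Bdnf, Inhba and Scg2, and Inhba, an activin subunit gene, went from 98.8, 107 and 78.1 to 300, 305 and 397 (1.66 ± 0.14, adjusted p = 2.88e-06). Sgk1, a kinase gene, was higher by 0.93 ± 0.07, Nfil3, a bZIP repressor, by 1.46 ± 0.14 and Gadd45b, a growth arrest gene, by 0.73 ± 0.12. The lower ones were Nptx1, a neuronal pentraxin that clusters AMPA receptors (-0.68 ± 0.06), and the kinase gene Sik1 (-0.38 ± 0.07). When the block was left out 6 of the 35 were higher and 2 lower.

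Genes that dampen signalling were called in both directions. In the Ras-MAPK feedback list 3 of 14 were higher (21.4%) and 4 lower (28.6%), against 2.96% and 1.45% of all genes. The list's median was 0.01. Spry1, a Sprouty inhibitor of growth factor signalling, read 295, 265 and 274 against 617, 756 and 905 (1.38 ± 0.15, adjusted p = 2.96e-05). The MAP kinase phosphatase genes divided: Dusp14 (0.57 ± 0.07) and Dusp6 (0.41 ± 0.07) were higher, while Dusp5 (-0.38 ± 0.08), Dusp2 (-0.26 ± 0.06) and Dusp3 (-0.22 ± 0.05) were lower. Errfi1, an inhibitor of EGF receptor signalling, was lower by -0.43 ± 0.09. Dusp14 and Spry1 were the 2 still higher without the replicate block, where 0 were lower. The lower count was also 0 without replicate 1 or without replicate 2.

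RGS proteins speed the switching off of G-protein signals. Of 16 measured genes 4 were higher (25%, against 2.96% of all genes) and 0 lower. Rgs3 read 652, 611 and 619 against 1519, 1596 and 2420 (1.5 ± 0.15), Rgs16 differed by 1.42 ± 0.16 and Rgs4 by 0.49 ± 0.06. Only 1 of the 3 Rgs3 probe sets was called. The median of the family was 0.05, so the difference lay in few of its members.

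TGF-beta family genes were called in both directions. Activins are dimers of inhibin beta subunits: the beta A gene Inhba was higher by 1.66 and the beta B gene Inhbb lower by -1.20. A second Inhba probe set was not called (0.04 ± 0.08, adjusted p = 0.859). Bambi, a decoy receptor that dampens this pathway, read 162, 137 and 145 in control arrays and 563, 473 and 537 with MEF2-VP16-ER (1.72 ± 0.10, adjusted p = 6.89e-08). Fst, the activin antagonist follistatin, was lower by -0.49 ± 0.10. The receptor genes Tgfbr1 (0.47 ± 0.09) and Acvr2b (0.45 ± 0.10) and the transducer genes Smad1 (0.39 ± 0.05) and Smad3 (0.45 ± 0.11) were higher. Id3, a target of BMP signals, was lower by -1.36 ± 0.34 (adjusted p = 0.0357), but its control mean of 1342 carried an SD of 1000 between the 3 arrays. Altogether 6 of 39 genes were higher (15.4%) and 3 lower (7.69%), against 2.96% and 1.45% of all genes. The median of the list was -0.02. Only Inhba, Bambi and Inhbb were called without the replicate block.

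Cadherin superfamily genes encode cell adhesion molecules. Of 20 measured genes 6 were higher (30%, against 2.96% of all genes) and 0 lower. Positive differences were found for 17, where 7764 of all 14217 genes were positive, and the median was 0.26 log2 units. Cdh10 read 2396, 1982 and 2162 in control arrays and 3778, 3697 and 4114 with MEF2-VP16-ER (0.82 ± 0.07, adjusted p = 3.67e-06), without overlap. The protocadherin genes called were Pcdh10 (0.84 ± 0.12), Pcdh20 (0.78 ± 0.08), Pcdh17 (0.52 ± 0.08) and Pcdh8 (0.31 ± 0.08), which made 4 of the 8 measured, and Cdh2, N-cadherin, was higher by 0.23 ± 0.06. Without the replicate block only Cdh10 of the 20 was called, and after quantile normalization 4 were. At 0 h the median of these genes was 0.05, and at 1 h it was -0.002.

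Axon guidance genes were called in both directions, 7 of 45 higher (15.6%) and 4 lower (8.89%), against 2.96% and 1.45% of all genes. Sema6a, a transmembrane semaphorin gene, read 2005, 1707 and 2225 against 3393, 3312 and 3983 (0.85 ± 0.07, adjusted p = 2.79e-06). The ephrin receptor gene Epha3 was higher by 0.65 ± 0.05 and Epha7 by 0.45 ± 0.08. Slit2 (0.37 ± 0.07), Sema3e (0.38 ± 0.07) and the netrin receptor gene Unc5c (0.33 ± 0.08) were also higher. Sema4b was lower by -0.43 ± 0.07, Sema4a by -0.28 ± 0.06, Efnb1 by -0.29 ± 0.07 and the receptor gene Ephb3 by -0.45 ± 0.11. Robo2, a Slit receptor gene, was called at 0.48 ± 0.08 but differed by as much at 0 h (0.48), where it was not called. Sema6a, Epha3 and Epha7 on the higher side and Sema4b on the lower were called without the replicate block.

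In the Notch pathway and among neural bHLH factors 2 of 30 were higher (6.67%) and 4 lower (13.3%). The shares over all genes were 2.96% and 1.45%. Only 8 of the 30 were positive, where 7764 of all 14217 genes were. Jag1, a Notch ligand gene, was higher by 0.89 ± 0.13 and Numb, an inhibitor of Notch, by 0.77 ± 0.07, with 493, 414 and 516 against 761, 797 and 892. Hey1, a Notch target, was lower by -0.61 ± 0.08. The proneural factor genes Neurod2 (-0.69 ± 0.07) and Neurod6 (-0.49 ± 0.08) were lower, as was Bhlhe41. Neurod2 read 768, 948 and 798 against 481, 527 and 525, without overlap. Without the replicate block the 2 higher genes kept their call, and 2 were lower, Neurod2 and Bhlhe41.

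In groups tied to the neuron's surface, 12% of heparan sulfate enzyme genes and 7.32% of potassium channel genes were higher, against 2.96% of all genes. Among sodium and calcium channel genes 4.17% were higher. Among potassium channel genes 4.88% were lower, against 1.45% of all genes. Of 25 heparan sulfate enzyme genes 3 were higher and 0 lower: Hs3st1, the related sulfotransferase gene Hs3st5 (0.565 ± 0.10) and Ext1, which builds the chain (0.63 ± 0.07). Of 41 potassium channel genes 3 were higher, Kcna4, the modulatory subunit gene Kcnv1 (0.65 ± 0.06) and the background channel gene Kcnk2 (0.63 ± 0.07), and the related Kcnk1 (-0.57 ± 0.10) and Kcnk3 (-0.32 ± 0.07) were lower. Cacnb2 (0.27 ± 0.06) was the 1 gene called among 24 sodium and calcium channel genes, and it lost that call without the replicate block.

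The lists of transmission genes held 0 or 1 call each, where 2.96% of all genes were higher and 1.45% lower. Among 37 glutamate receptor and scaffold genes 0 were higher and 1 lower, Grm8 (-0.525 ± 0.14, adjusted p = 0.0474), with 9 at an unadjusted p under 0.05. Among 17 GABA signalling genes limma called 0, with 1 at an unadjusted p under 0.05. Of 32 synaptic vesicle genes 1 was called, Sypl1 (0.26 ± 0.07). Neither Grm8 nor Sypl1 kept its call without the replicate block.

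Of 43 muscle MEF2 targets 3 were higher (6.98%, against 2.96% of all genes) and 0 lower, with a median of -0.002. They were Myl1, Hrc (0.28 ± 0.07), a calcium-binding protein gene, and Ppargc1a, a coactivator of mitochondrial genes (0.72 ± 0.07, adjusted p = 9.08e-06). Col10a1 was the only one of 32 collagen genes called. Among chaperone and unfolded protein response genes 2 of 30 were higher, Hspb1 and Dnajb4 (0.38 ± 0.06), and 2 lower, Hspa1a (-0.38 ± 0.07) and Dnajb5 (-0.31 ± 0.06). Without the replicate block only Dnajb5 of these 30 was called.

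Other groups held 0 or 1 called gene, where 2.96% of all genes were higher and 1.45% lower. Of 22 estrogen receptor and estrogen-responsive genes 1 was higher, the corepressor gene Nrip1 (0.42 ± 0.08), which was not called without the replicate block. Of 24 interferon response genes 1 was higher, Rsad2 (0.345 ± 0.08), likewise lost without the block, and of 16 p53 target and Gadd45 genes 1 was, Gadd45b. Among NF-kappaB targets 0 of 20 and among cell cycle genes 0 of 30 were called by limma, with 1 in each at an unadjusted p under 0.05.

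No oxidative phosphorylation or cholesterol synthesis gene was called by limma. Of 53 oxidative phosphorylation genes 52 were positive, with a median of 0.09 log2 units, and limma called 0, with 3 at an unadjusted p under 0.05. After quantile normalization 35 of the 53 were positive and the median was 0.02. Pair medians on the deposited scale were 0.09, 0.14 and 0.02, and the median was 0.05 at 0 h and -0.06 at 1 h. At 0 h 50 of the 53 were already positive. Of all 14217 genes 7764 were positive at 2.5 h and 8566 at 0 h. Of 22 cholesterol synthesis genes 4 were positive, with a median of -0.12, and 0 were called, with 5 at an unadjusted p under 0.05. Their pair medians were -0.30, 0.08 and -0.09, so the pairs did not share a direction, and at 0 h all 22 were positive. After quantile normalization 2 cholesterol genes were called lower.

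**Figure D2:**
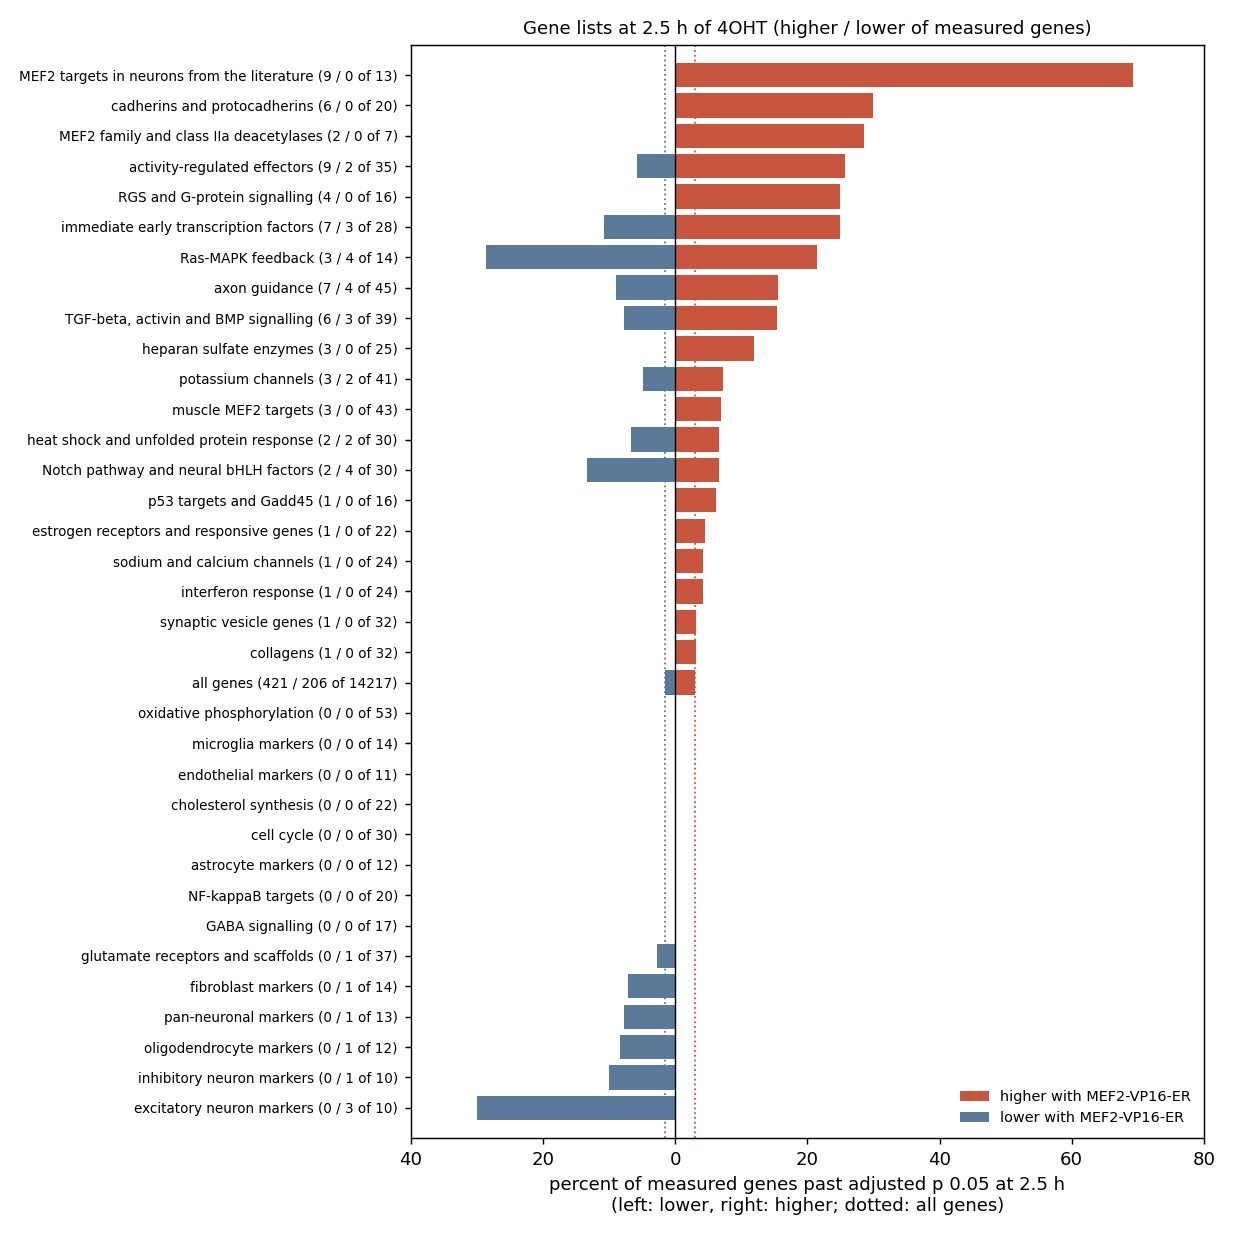
Percent of measured genes in each list that were called higher (right) or lower (left) at 2.5 h, with dotted lines at the shares over all 14217 genes, 2.96% and 1.45%. Published neuronal MEF2 targets, 9 of 13 higher, stand farthest to the right, and Ras-MAPK feedback and excitatory neuron markers, with 4 of 14 and 3 of 10 lower, reach farthest to the left.

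Summed marker levels were compared between the constructs. The summed intensity of 13 pan-neuronal markers was 74680 to 77200 in control arrays and 79690 to 82280 with MEF2-VP16-ER, which did not overlap. That of 12 astrocyte markers was 59970 to 71640 against 61980 to 73510, of 12 oligodendrocyte markers 10550 to 18000 against 8411 to 15520, and of 10 inhibitory neuron markers 9339 to 10090 against 8650 to 9962. Microglia markers (14 genes) summed to 1663 to 1966 against 1593 to 2021, endothelial markers (11 genes) to 1107 to 1276 against 1107 to 1136 and fibroblast markers (14 genes) to 8906 to 12430 against 9323 to 12440. No marker was at 0, and the dimmest, the astrocyte gene Gjb6, averaged 35.9. Sums over probe sets weight the bright ones and do not give cell numbers. In the pan-neuronal list 0 genes were called higher and 1 lower, and the median difference was 0.066 log2 units. The 0 h arrays already gave that list a median of 0.084. Quantile normalization lowered its 2.5 h median to 0.012, with 8 of the 13 genes positive.

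Of 10 excitatory neuron markers 3 were lower (30%, against 1.45% of all genes) and 0 higher, and 4 were positive. The lower ones were Fezf2, Neurod2 and Neurod6, all transcription factor genes. Neurod2 and Neurod6 were also counted above among the neural bHLH factors. Fezf2 read 1946, 1985 and 1579 in control arrays and 1228, 1193 and 863 with MEF2-VP16-ER (-0.75 ± 0.06, adjusted p = 2.44e-06). The vesicular glutamate transporter gene Slc17a7, a defining marker of these cells, differed by 0.05 ± 0.08 (adjusted p = 0.845). The summed level of the list was 22530 to 26890 against 19220 to 23000. Neurod6 was not called without the replicate block. In RNA from whole cultures, fewer cells of a type and less RNA per cell cannot be told apart.

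Single markers of other cells were lower as well. They were Sox10 of oligodendrocyte lineage cells (-0.47 ± 0.12), Dcn of fibroblasts (-0.58 ± 0.09), Dlx1 of inhibitory neurons (-0.33 ± 0.08) and the neurofilament gene Nefh (-0.39 ± 0.07). Each was the 1 gene called in its list, and none passed without the replicate block. In these lists 10 of 13 pan-neuronal, 6 of 10 inhibitory neuron, 7 of 14 fibroblast and 1 of 12 oligodendrocyte markers were positive. Limma called 0 of 12 astrocyte, 0 of 14 microglia and 0 of 11 endothelial markers, where 2, 2 and 1 had an unadjusted p under 0.05. The part of cell composition in the other results was not tested.

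Several of the smaller differences did not keep their call with fewer arrays. In most of these genes the difference itself moved by less than 1.5 times. The exceptions were Homer1 (0.295 without control replicate 2 at 2.5 h and 0.305 without replicate 2), Grm8 (-0.348 without control replicate 2 at 2.5 h), Hrc (0.177 without replicate 3) and Dlx1 (-0.199 without replicate 3). Homer1, Egr1, Cacnb2, Grm8, Hrc, Dlx1, Rsad2, Sox10 and Sypl1 lost their call under most of the 9 ways of leaving out a replicate number or a 2.5 h array. Their highest adjusted p was 0.393 for Homer1 and 0.483 for Sypl1 without replicate 2, 0.268 for Egr1 without replicate 1, and 0.186 for Cacnb2, 0.424 for Hrc, 0.479 for Dlx1 and 0.331 for Rsad2 without replicate 3. For Grm8 it was 0.276 without control replicate 2 at 2.5 h, and for Sox10 0.192 without MEF2-VP16-ER replicate 3 at 2.5 h. Leaving out replicate 2 also ended the calls of Gadd45b (adjusted p = 0.0812), Kcnk1 (0.108), Neurod6 (0.114), Pcdh17 (0.0704), Errfi1 (0.0527), Hs3st5 (0.0669), Nefh (0.0744), Nrip1 (0.134), Hspa1a (0.0683), Dnajb5 (0.0575) and the brightest Mef2a probe set (0.155). Without replicate 3 those of Myl1 (0.0562), Dnajb4 (0.064), Hs3st5 (0.0658), Nefh (0.0744), Nrip1 (0.0972), Hspa1a (0.156), Dnajb5 (0.124) and the brightest Mef2a probe set (0.0563) ended. Errfi1 (0.12) and Dnajb5 (0.0657) were not called without replicate 1 either. Single arrays ended the call of Hspa1a (control replicate 2, adjusted p = 0.0509) and of Nrip1 (control replicate 3, adjusted p = 0.0558).

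For several genes above the probe sets disagreed. Other probe sets were not called for Kcnk2 (0.01, adjusted p = 0.96), Hs3st5 (-0.04, 0.877), Epha3 (-0.01, 0.958), Sema6a (0.08, 0.663), Nr4a3 (0.23, 0.187), Numb (0.25, 0.0849), Ppargc1a (0.29, 0.0993), Robo2 (0.11, 0.55) and Grm8 (0.01, 0.962).

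Arrays at 0 h and 1 h share no hybridisation with those at 2.5 h, and they show how far the constructs already differed. At 0 h limma called 1 probe set of 31042 (0.00322%), for Kitlg, the stem cell factor gene (0.40, adjusted p = 0.00887), which differed by 0.89 at 2.5 h (adjusted p = 2.39e-08). At an unadjusted p under 0.05 there were 4511 at 0 h, close to the 4534 at 2.5 h, so differences at that unadjusted threshold were about as frequent at 0 h. Of the 764 probe sets higher at 2.5 h, 634 were positive at 0 h, where 53.9% of all probe sets were positive. Their median difference was 0.11 at 0 h. Of the 319 lower at 2.5 h, 142 were negative at 0 h. Across probe sets the difference at 2.5 h was correlated with that at 0 h at r = 0.332 and with that at 1 h at r = 0.45. These correlations are across probe sets, which are not independent, and arrays with the same number share their replicate.

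At 1 h, 79 probe sets were called (0.254%), and 66 of them were also called at 2.5 h, all in the same direction. That is 83.5% of the calls at 1 h and 6.09% of those at 2.5 h. Of the probe sets higher at 2.5 h, 629 were positive at 1 h, and of the lower ones 270 were negative. Among the 18 leading higher genes 11 were called at 1 h, and among the 14 leading lower genes 4 were, Sstr2, Txnip, Inhbb and Irf2bpl. Cited2 differed by 1.51 at 1 h and Klf5 by 1.40, against 1.89 and 1.68 at 2.5 h. Txnip differed by -1.47 at 1 h and -1.27 at 2.5 h, while Gse1 differed by -0.06 at 1 h and -1.08 at 2.5 h.

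**Figure D3:**
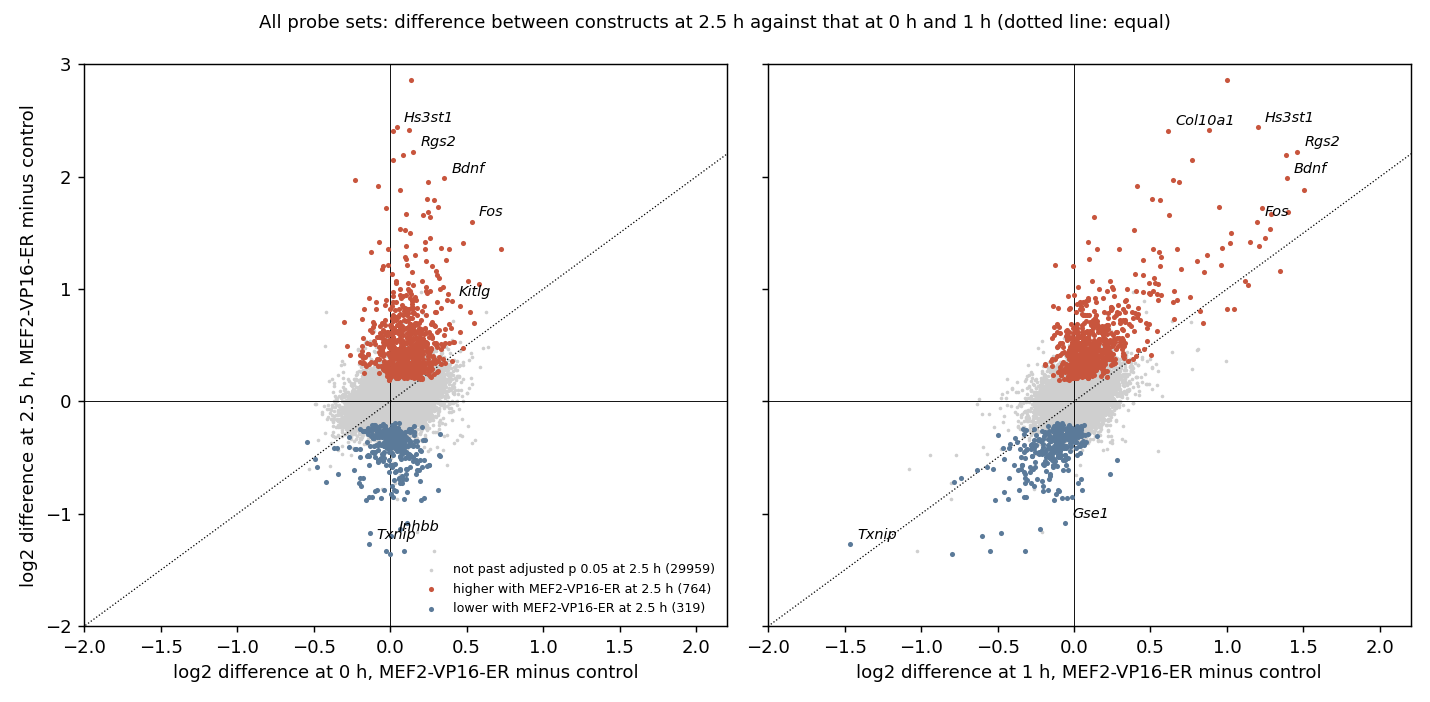
Difference between constructs at 2.5 h (vertical, log2) against that at 0 h (left) and at 1 h (right) for 31042 probe sets, with the 764 called higher and 319 called lower at 2.5 h in colour and a dotted line where both are equal. At 0 h the probe sets called higher had a median of 0.11 and those called lower 0.01, and the 32 leading genes ranged from -0.23 to 0.53. At 1 h called probe sets spread toward the dotted line.

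The change in the construct difference between times was tested directly, in contrasts that share the 2.5 h arrays with the comparison above. From 0 h to 2.5 h it changed for 291 probe sets (0.937%), and from 1 h to 2.5 h for 124 (0.399%). Of the 18 leading higher genes 16 passed the contrast with 0 h, the exceptions being Synpo2l and Fos. Of the 14 leading lower genes 13 passed, the exception being Sh3bp4. These genes were chosen for the size of their difference at 2.5 h, so these shares do not describe the 1083 probe sets called there, far more than the 291 that passed this contrast. Fos differed by 0.53 at 0 h, 1.20 at 1 h and 1.6 at 2.5 h, with a call at 2.5 h only, and the contrast with 0 h had an adjusted p of 0.566. Hdac5 differed by 0.38 at 0 h and 0.96 at 2.5 h, and that increase did not pass (adjusted p = 0.0986). Adcy8 differed by 0.73 at 0 h and 1.36 at 2.5 h (adjusted p = 0.0922), and Lgi1 by 0.36 and 0.64 (adjusted p = 0.534). For Hdac5, Adcy8, Lgi1, Robo2 and Dcn the difference at 2.5 h was therefore not shown to exceed that at 0 h. The same held for further genes called at 2.5 h. Among them, limma's contrast with 0 h gave adjusted p of 0.0885 for Pcdh10, 0.244 for Kcnk2, 0.239 for Hey1, 0.535 for Dusp6 and 0.722 for Nrip1.

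From 1 h to 2.5 h the difference grew for 9 of the leading higher genes, among them Col10a1, Opn3, Ptpn21 and Inhba, which were not called at 1 h. It became more negative for 7 of the leading lower genes, including Gse1, Runx1t1, Nin and Fezf2. Some adhesion and guidance genes passed this contrast too: Cdh10 differed by -0.03 at 1 h and 0.82 at 2.5 h, Epha3 by -0.01 and 0.65 and Sema6a by 0.04 and 0.85. Others did not, with adjusted p of 0.303 for Pcdh20, 0.271 for Pcdh10, 0.308 for Sema4b and 0.433 for Robo2. In the Notch list Numb passed, at 0.06 and 0.77. Bdnf, Rgs2 and Nr4a1 were called at both times, and their contrast between 1 h and 2.5 h did not pass.

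**Figure D4:**
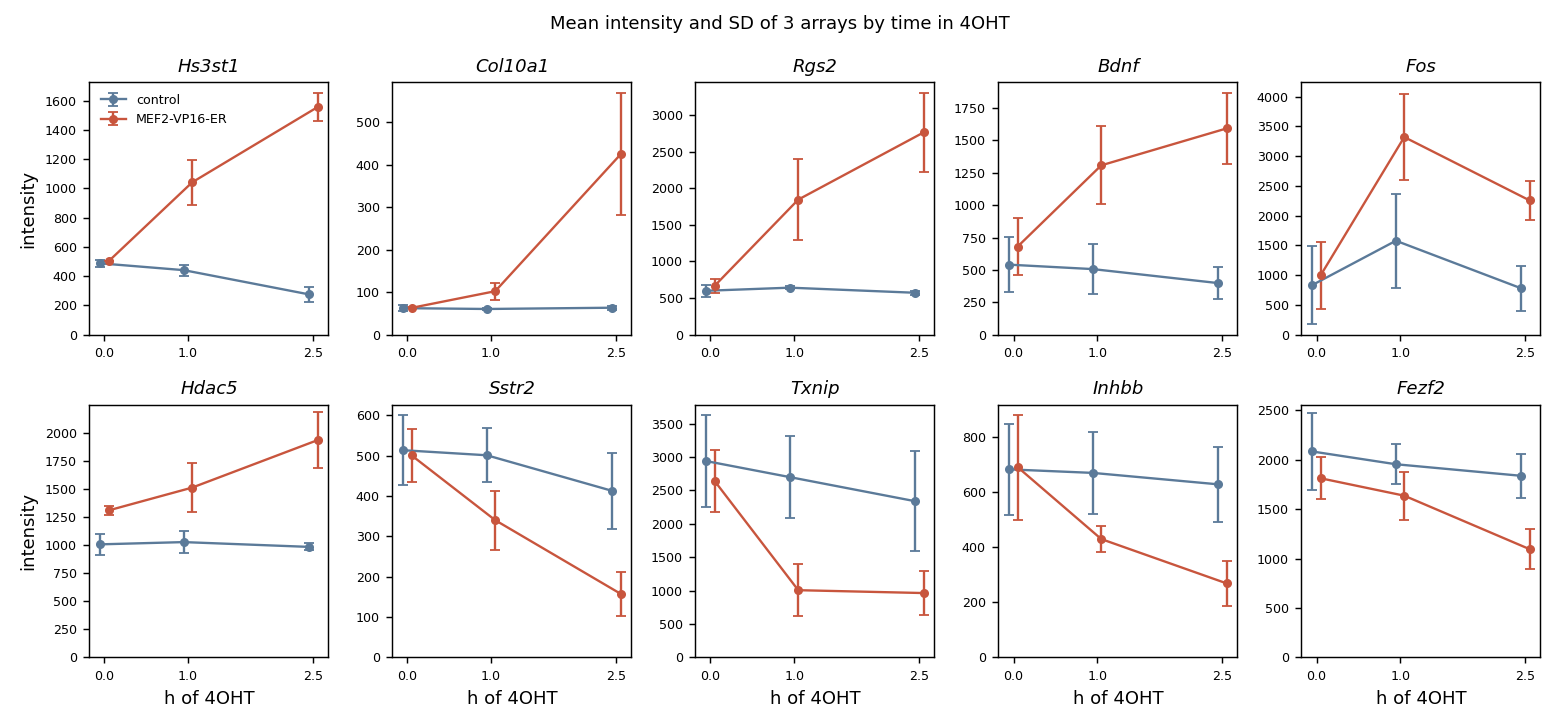
Mean intensity (vertical, linear scale) with SD bars over 3 arrays for 10 genes at 0, 1 and 2.5 h of 4OHT in control and MEF2-VP16-ER neurons. Hs3st1, Col10a1, Rgs2 and Bdnf separate after 0 h, Hdac5 already stood at 1308 ± 37.2 against 1006 ± 90.6 at 0 h, and the control level of Hs3st1 declined to 275.6 ± 50.2.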

How the data were processed

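Total RNA from the cultures was converted to biotin-labelled cRNA and hybridised to Affymetrix arrays, per the labels' protocols. The values are linear probe set intensities as deposited by the authors, whose normalization, not given in the sources used here, leaves the treatment of dim values unknown. Control probe sets (57) were left out, leaving 31042. Of these, 20826 carried 1 gene symbol in GEO's platform annotation, 436 several and 9780 none, and the last 2 kinds were not named.

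Differences were fitted on log2(intensity + 16) with limma 3.58.1 in R 4.3.3 (lmFit, eBayes) over all 18 arrays, with 6 group means and the replicate number as a block, and Benjamini-Hochberg adjustment over all probe sets. The block was kept because same-numbered 2.5 h arrays deviated together from their group means (correlations from 0.295 to 0.749, and 44 of 45 same-numbered pairs over all arrays exceeded 0.1). The labels do not say what the number marks. If replicates were technical, the p-values cover only that spread. The model code was tested on simulated data. Python 3.11.15 and matplotlib 3.10.9 drew the figures.

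Genes named as leading were the 18 higher and 14 lower with the largest differences among calls whose 3 arrays of one construct all lay above the 3 of the other, each gene by its most significant probe set. Up to 4 members of each list with the smallest p were named too, with 10 genes named whatever their values, and further list members were named where a count was itemised, after their values were seen. Where a gene had several probe sets, list counts used the brightest. The comparison, members and gene lists were chosen with earlier results of these data known. Alternatives covered the block, scaling, pseudocount, dim probe sets, variance model and each left-out array.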

Additional observations from a re-analysis of the deposited data

Results flagged for a closer look

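The construct difference itself changed between time points for the genes below, by limma's test of that change with adjusted p under 0.05. All values are log2 units, 2.5 h minus the earlier time, and both contrasts share the 2.5 h arrays with the comparison of constructs. Against 0 h it was more positive by 2.4 for Hs3st1, 2.39 for Col10a1, 2.29 for Pwwp3b, 2.13 for Fgl2, 2.11 for the other Rgs2 probe set, 2.07 for Rgs2, 1.99 for Ptpn21 and 1.82 for Cited2. Next came 1.75 for Bambi, 1.71 for Opn3, 1.63 for Bdnf, 1.5 for Hspb1, 1.5 for Rgs16, 1.47 for Adamts1, 1.45 for Inhba and 1.43 for Klf5. Below these stood 1.42 for Kcna4, 1.37 for Rgs3, 1.28 for Spry1, 1.11 for Nr4a1, 1 for Nr4a2, 0.888 for Klf6, 0.835 for Sema6a and 0.77 for Sgk1. Smaller increases were 0.712 for Cdh10, 0.711 for Numb, 0.695 for Ppargc1a, 0.683 for Pcdh20, 0.672 for Pcdh17, 0.628 for Nr4a3, 0.628 for Epha3 and 0.611 for Ext1. The least of them were 0.513 for Kcnv1, 0.487 for Mef2a, 0.454 for Myl1 and 0.42 for Rgs4.

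Against 0 h the difference was more negative, at -1.3 for Sstr2, -1.21 for Inhbb, -1.19 for Gse1, -1.13 for Txnip, -1.07 for Nin, -0.952 for Arrdc4, -0.918 for Ddit4 and -0.868 for Irf2bpl. Then came -0.82 for Kcnk1, -0.803 for Runx1t1, -0.796 for Egr1, -0.764 for Fam43b, -0.747 for Neurod2, -0.712 for Ntf3, -0.7 for Bhlhe41 and -0.559 for Fezf2. Smaller decreases were -0.552 for Neurod6 and -0.397 for Dnajb5.

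Against 1 h it was more positive by 1.8 for Col10a1, 1.53 for Pwwp3b, 1.5 for Ptpn21, 1.37 for Fgl2, 1.27 for Opn3, 1.24 for Hs3st1, 1.23 for Hspb1 and 1.04 for Inhba. Then came 0.858 for Cdh10, 0.803 for Sema6a, 0.782 for Kcna4, 0.705 for Numb, 0.66 for Epha3, 0.637 for Ppargc1a, 0.599 for Pcdh17 and 0.548 for Ext1. Smaller increases over 1 h were 0.504 for Mef2a, 0.495 for Nr4a3 and 0.47 for Kcnv1. Against 1 h it was more negative, at -1.03 for Gse1, -0.811 for Nin, -0.785 for Runx1t1, -0.783 for Sstr2, -0.554 for Fam43b, -0.54 for Irf2bpl and -0.489 for Fezf2.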

How the results depend on the processing

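Without the replicate block, 295 probe sets were higher and 102 lower at 2.5 h, and the calls numbered 0 at 0 h, 19 at 1 h, 55 for 2.5 h minus 0 h and 13 for 2.5 h minus 1 h. With only the 6 arrays at 2.5 h, there were 420 higher and 141 lower with the block and 68 and 6 without it. With 1 probe set per gene 481 were higher, since fewer were tested, and with quantile normalization 522 were lower. Leaving out arrays gave 293 to 815 higher and 104 to 288 lower at 2.5 h, 0 at 0 h, 25 to 34 at 1 h, 91 to 118 for 2.5 h minus 0 h and 16 to 23 for 2.5 h minus 1 h. With the left-out arrays fewer samples were fitted, and for the other settings the cause was not tested. Of 86 named results none reversed under these settings. Without the block 32 lost their call, with the block as a random effect 14 did, and without replicates 1, 2 and 3 11, 21 and 18 did. With only the 6 arrays at 2.5 h, 13 lost it with the block and 59 without it, the largest loss of any setting. Quantile normalization, median centring and a pseudocount of 1 each cost 1 call, the trended robust fit 4 and a pseudocount of 64 cost 5. Levels near background limit the folds of dim genes.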
